A study of Mus musculus with 12 samples.

Results

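Bivalent gene ends were examined in mouse intestinal organoids given arachidonic acid (AA) or vehicle. A bivalent gene end is taken here as a stretch of chromatin that carries H3K4me3, a histone mark of promoters, and H3K27me3, the mark of Polycomb repressive complex 2, at the start or finish of a gene. The set held the H3K4me3 peaks on chromosomes 1 to 19 that lay within 1 kb of an end of a RefSeq protein-coding gene and shared at least 1 bp with an H3K27me3 peak of 3000 bp or more. It numbered 2103 peaks, out of 14042 H3K4me3 gene-end peaks on those chromosomes and 58548 H3K4me3 peaks in all. They touched the ends of 2115 genes and lay on 2034 long H3K27me3 peaks, called domains below. The X chromosome held another 124 peaks of the same kind, which the chromosome limit left out.

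The organoids were grown from isolated mouse crypts in Matrigel and profiled by CUT&RUN, where a nuclease tethered to an antibody frees the DNA around a marked nucleosome. The AA group had received 25 µM AA, the fatty acid from which prostaglandins are made, and the other group vehicle, both for 6 days. H3K4me3, H3K27me3 and H3K27ac, a mark of active promoters and enhancers, each had 2 libraries per group, 12 in all. All groups shared the same growth medium, with EGF, Noggin, R-spondin and the GSK3 inhibitor CHIR-99021. The sample labels give no strain, age or genotype for either group. The series' design text, however, names Ptger knockout organoids (Ptger being the symbol root of the prostaglandin E receptor genes), so the genotype of these libraries cannot be told from the sources.

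In embryonic stem cells, bivalent chromatin marks developmental genes that are silent or nearly so, with Polycomb complexes and H3K4 methyltransferases present at the same CpG-rich promoters. Many of these genes encode transcription factors, morphogens and receptors. In the intestinal epithelium, Polycomb repressive complex 2 is known to keep lineage and developmental genes silent in crypt cells. A bulk profile cannot tell both marks on one nucleosome from each mark in a different cell, nor a change in the number of marked cells from a change per cell.

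The promoters of 4 genes are printed because they carry the results below. Sox21 and Col18a1 gained H3K4me3 in AA, whereas Coq8a and Chrm3 had less H3K4me3 and more H3K27me3. The sequences are RefSeq's (GRCm38.p6, the same build as mm10), from 250 bases before to 50 after the listed start, 300 bases each, read 5′ to 3′ on the gene's own strand. Capitals mark each CG dinucleotide.
Sox21: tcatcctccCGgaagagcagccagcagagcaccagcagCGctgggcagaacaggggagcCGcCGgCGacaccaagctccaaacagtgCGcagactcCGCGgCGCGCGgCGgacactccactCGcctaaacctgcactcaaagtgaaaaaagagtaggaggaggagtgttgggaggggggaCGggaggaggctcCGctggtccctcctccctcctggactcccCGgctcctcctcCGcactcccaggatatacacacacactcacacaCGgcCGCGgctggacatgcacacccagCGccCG
Col18a1: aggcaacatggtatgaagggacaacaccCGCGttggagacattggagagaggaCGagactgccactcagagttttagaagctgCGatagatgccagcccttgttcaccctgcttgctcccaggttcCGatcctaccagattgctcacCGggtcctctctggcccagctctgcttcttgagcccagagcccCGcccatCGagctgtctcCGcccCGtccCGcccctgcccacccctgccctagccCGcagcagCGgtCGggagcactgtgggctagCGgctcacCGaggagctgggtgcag
Coq8a: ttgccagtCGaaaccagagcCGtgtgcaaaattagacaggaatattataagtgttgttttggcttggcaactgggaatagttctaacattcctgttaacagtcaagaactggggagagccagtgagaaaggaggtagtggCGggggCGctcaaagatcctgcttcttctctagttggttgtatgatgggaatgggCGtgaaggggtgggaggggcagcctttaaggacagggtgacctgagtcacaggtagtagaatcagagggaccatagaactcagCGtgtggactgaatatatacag
Chrm3: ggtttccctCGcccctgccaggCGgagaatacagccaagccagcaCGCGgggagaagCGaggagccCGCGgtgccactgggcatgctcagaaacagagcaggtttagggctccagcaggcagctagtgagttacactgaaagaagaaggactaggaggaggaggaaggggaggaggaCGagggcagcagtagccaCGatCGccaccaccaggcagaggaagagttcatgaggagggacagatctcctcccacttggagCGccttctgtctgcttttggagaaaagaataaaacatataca
The Sox21 window (chr14:118236981-118237280, minus strand) held 22 CG dinucleotides and 65.7% G and C. The Col18a1 window (chr10:77166481-77166780, minus strand) held 16 and 63.3%. The Coq8a window (chr1:180193436-180193735, minus strand) held 6 and 48.7%, and the Chrm3 window (chr13:10360754-10361053, minus strand) 11 and 57.3%. Each window lay inside its gene's H3K4me3 peak. Over the 21263 promoters of the RefSeq table the median was 13 CG dinucleotides and 56.3% G and C, so Sox21 and Col18a1 lay above both medians and Coq8a below both. The letters GGGCGG, searched on both strands, occurred in 46.2% of all promoters and, of these 4, in Col18a1 alone. The table listed 1592 (75.3%) of the 2115 genes, under the 80% needed to describe the composition of the set, so that comparison was void.

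The peak score is the authors' scaled signal, which behaved as a mean coverage per base. A library's median score over the bivalent H3K4me3 peaks was 0.229 and 0.176 in the AA libraries and 0.262 and 0.268 in the vehicle libraries. Over the other 11939 gene-end peaks it was 0.804 and 0.675 in AA and 0.656 and 0.636 in vehicle. Bivalent ends thus had less H3K4me3 than other gene ends in each of the 4 libraries, with differences of the log2 medians of -1.71 and -1.80 in AA and -1.25 and -1.17 in vehicle. Their H3K4me3 peaks were also shorter, at a median of 2398 bp against 3902 bp. The domains had a median length of 5979 bp and reached from 3002 to 144400 bp, and 1331 (63.3%) of the H3K4me3 peaks lay wholly inside one. The domains' median H3K27me3 score was 0.239 in both AA libraries and 0.197 and 0.192 in the vehicle libraries. Over the other 6001 H3K27me3 peaks of 3000 bp or more it was 0.165 and 0.172 in AA and 0.144 and 0.137 in vehicle.

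**Figure D1:**
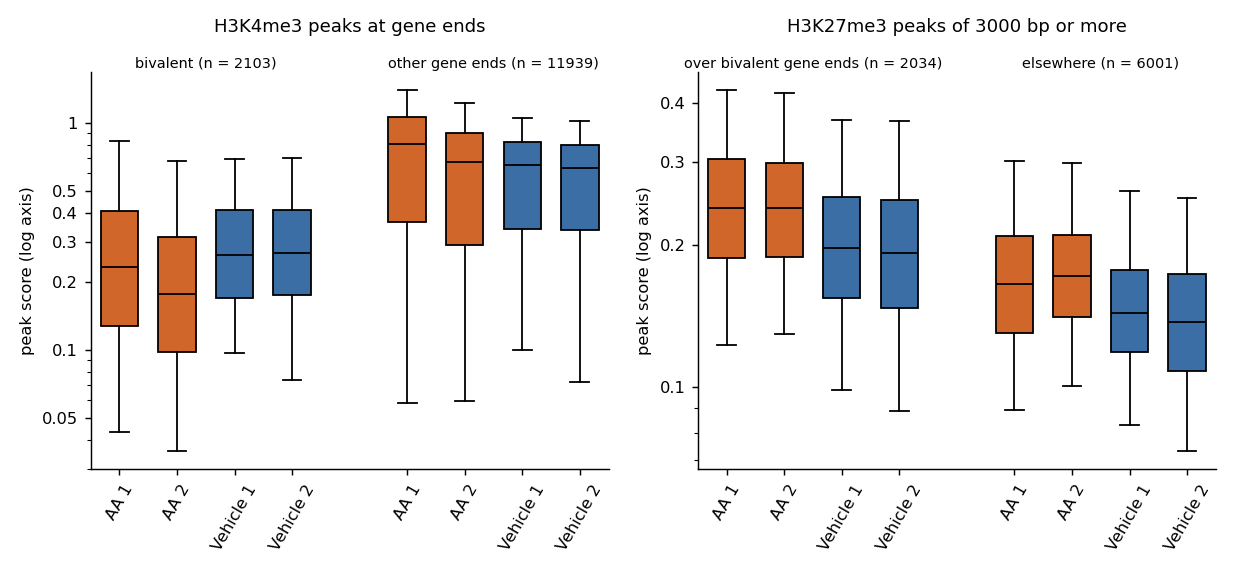
Peak scores (log axis) in each library: left, H3K4me3 at bivalent and at other gene ends; right, H3K27me3 at the domains over bivalent gene ends and at the other peaks of 3000 bp or more. Boxes are quartiles with the median, whiskers run from the 5th to the 95th percentile of peaks scored above 0; the bivalent H3K4me3 boxes lie lower than those of other gene ends in all 4 libraries, and the domain boxes lie higher than those elsewhere.

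H3K27ac, which was not part of the choice, overlapped 413 (19.6%) of the bivalent ends, against 9745 (81.6%) of the other gene ends. The second peak caller's H3K4me3 peaks overlapped 1469 (69.9%) of the bivalent peaks by 1 bp or more, against 83.7% of the other gene ends. Its H3K27me3 peaks overlapped 642 (31.6%) of the domains in the same way, against 8.02% of the other long H3K27me3 peaks. Among the 1614 bivalent ends with a gene in the RefSeq promoter table, 1328 (82.3%) had a listed start within 1 kb, so most lay at gene starts rather than finishes. At the edge of the length rule, the 55 domains of 3000 bp to under 3100 bp had a median score of 0.153 and the 42 comparable peaks of 2900 bp to under 3000 bp one of 0.15. Their median H3K27me3 changes, AA minus vehicle, were 0.35 and 0.26 on the log2 scale.

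Members were not spread evenly over domains. One domain across the HoxA cluster, 68451 bp long (chr6:52191910-52260360), held 12 bivalent peaks at Hoxa3 to Hoxa13, and one across HoxD (chr2:74655732-74705206) held 7. Domains with 2 or more bivalent peaks numbered 145, and their members share one H3K27me3 value. The next largest groups were the 4 peaks on the HoxC domain and the 4 on a HoxB domain. The Hox genes are the homeobox factors that set position along the body axis.

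Depth differed between the groups for H3K4me3. The raw coverage at the median bivalent H3K4me3 peak was 2.1 and 1.73 fragments per base in the AA libraries and 5.1 and 3.52 in the vehicle libraries. At the domains the H3K27me3 coverage was 2.54 and 3.12 in AA and 3.4 and 2.38 in vehicle, so the groups overlapped. Over the bivalent H3K4me3 peaks, principal component 1 held 59.9% of the variance and set AA replicate 2 apart at 23.3. AA replicate 1 lay at 5.91 and the vehicle libraries at -14.1 and -15.1. Of the markers fixed for cell types, all 8 stem cell, all 9 epithelial and 9 of 10 enterocyte genes had an H3K4me3 gene-end peak. The same held for 2 of 8 fibroblast, 2 of 6 blood and 1 of 6 endothelial and glial genes. Lgr5, Olfm4 and Ascl2, stem cell markers, were themselves bivalent ends by the rule. The summed H3K4me3 score of the enterocyte markers was 4.35 and 3.55 in AA and 4.65 and 4.57 in vehicle, and that of the epithelial markers 9.73 and 8.42 in AA and 7.87 and 7.5 in vehicle. The enterocyte sums were thus lower and the epithelial sums higher in AA without overlap. The stem cell sums, 6.63 and 5.61 in AA and 6.03 and 5.92 in vehicle, overlapped. The median log2 change was -0.41 over the enterocyte markers and 0.15 over the epithelial ones. Over the other gene-end peaks it was 0.19, so the epithelial markers did not exceed gene ends in general. The part of cell types in the results below was not tested.

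The first comparison asked how H3K4me3 at bivalent ends differed between AA and vehicle organoids. Each mark was tested with limma over all its peaks, and a peak was called at a Benjamini-Hochberg adjusted p of up to 0.05. On simulated data the test called more false H3K4me3 peaks than that threshold states, so adjusted p values close to it are to be read with caution. H3K4me3 was higher in AA at 25 bivalent ends (1.19%) and lower at 74 (3.52%), whereas 1.54% of all H3K4me3 peaks were higher and 1.38% lower. The other gene ends ran the other way, with 5.05% higher and 0.905% lower, and the peaks away from gene ends had 0.625% higher and 1.44% lower. The shares were not tested against each other, since peaks share their 4 libraries. The split of higher and lower calls turned with the scaling. It was 104 higher and 53 lower of 2103 bivalent ends when each library was centred on its median over all peaks. That centring moved the median change of all peaks to 0.02, against -0.19 with the deposited scaling. Of all H3K4me3 peaks it called 9.49% higher and 0.938% lower, so the split of all peaks turned as well. Quantile normalization gave 37 higher and 120 lower, against 1.67% and 2.37% of all peaks.

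The median change of the bivalent ends was -0.32 on the log2 scale, against -0.19 over all peaks, 0.19 over other gene ends and -0.32 over peaks away from gene ends. Both AA libraries lay below both vehicle libraries at 922 bivalent ends (43.8%), against 30.5% of all peaks. Both lay above them at 204 (9.7%), against 18.3% of all peaks. Weak peaks of every kind had lower scores in AA, and the AA libraries were the shallower ones. The part of depth in these values was not tested. Among peaks of like level, in 10 equal bins of all H3K4me3 peaks by mean score, the bivalent median lay below that of other gene ends in all 10, with differences of -0.49 to -0.05. It lay below that of peaks away from gene ends in 8 of 10. In the weakest bin the medians were -0.99 at 51 bivalent ends and -0.74 at 260 other gene ends. In the strongest they were 0.24 at 86 bivalent ends and 0.28 at 5021 others. The order against other gene ends held in all 10 bins under each scaling, pseudocount and omission of 1 library that was tried.

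**Figure D2:**
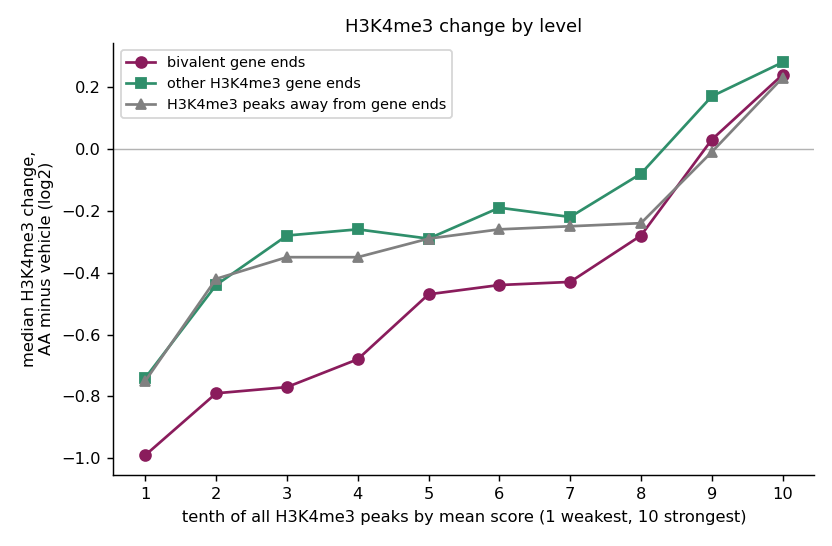
Median H3K4me3 change, AA minus vehicle (log2), in 10 equal bins of all H3K4me3 peaks by mean score, for bivalent gene ends (circles), other H3K4me3 gene ends (squares) and H3K4me3 peaks away from gene ends (triangles). The bivalent line is the lowest in bins 1 to 8 and lies below that of other gene ends in all 10.

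Single libraries decided the number of calls. Without AA replicate 2, 166 bivalent ends were higher and 142 lower, and the median change was -0.13; without AA replicate 1 the counts were 53 and 479. Without vehicle replicate 1 the calls dropped to 6, and without vehicle replicate 2 to 3. Of the 99 called ends, 3 were called whichever library was left out, among them Sox21 and Rbpms, with adjusted p values no higher than 0.000125 and 0.0203. limma without trend and robust estimation called 0, with 292 of 2103 at an unadjusted p under 0.05, against 6259 of all 58548 H3K4me3 peaks.

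Sox21, a SoxB2 transcription factor gene, had a broad H3K4me3 peak of 9444 bp (chr14:118229612-118239055) that held the promoter printed above. It scored 1.34 and 1.12 in AA and 0.381 and 0.382 in vehicle, a rise of 1.62 ± 0.18 (SE, limma adjusted p = 2.06e-15). The groups were well apart, and the 2 vehicle libraries nearly coincided. Its domain of 21474 bp scored 0.242 and 0.237 in AA and 0.337 and 0.338 in vehicle, without overlap, and just missed the threshold (-0.44 ± 0.12, adjusted p = 0.0553).

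Col18a1 encodes collagen XVIII of basement membranes. It scored 0.502 and 0.426 in AA and 0.137 and 0.0772 in vehicle (1.92 ± 0.34, limma adjusted p = 1.15e-05). Syt14, a synaptotagmin gene, had 0.502 and 0.411 in AA and 0.134 and 0.115 in vehicle (1.68 ± 0.33, limma adjusted p = 0.000111). In neither gene did the groups overlap. Fut2, the fucosyltransferase behind intestinal surface fucose, had 0.589 and 0.399 in AA and 0.118 and 0.169 in vehicle (1.61). At Col18a1, Syt14 and Fut2 both vehicle scores lay below the vehicle medians of all H3K4me3 peaks, 0.174 and 0.179. Dse, which epimerises chondroitin to dermatan sulfate, had 0.558 and 0.727 in AA and 0.245 and 0.165 in vehicle (1.54). Samd5 rose by the same 1.54, Fmnl2, an actin-assembling formin, by 1.34, Rab15, an endosomal GTPase, by 1.27 and Spaca6, a sperm membrane protein gene, by 1.26. All 9 of the rises from Sox21 to Spaca6 had a domain change below 0, from -0.93 at Spaca6 to -0.20 at Dse, and none of those domain changes passed the test.

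Of the 10 largest falls, the first was at Slitrk3, a synaptic adhesion gene, which scored 0.0658 and 0.0284 in the AA libraries and 0.294 and 0.34 in the vehicle libraries (-2.29 ± 0.50, limma adjusted p = 0.000953). AA was the lower group there without overlap, although its scores rest on few fragments. Of the 74 ends with lower H3K4me3, 18 had both AA scores below the AA medians of all H3K4me3 peaks. Of the 25 with higher H3K4me3, 4 had both vehicle scores below the vehicle medians. Such ends may have entered the set through the libraries of 1 group alone. The direction of their change may thus be fixed in part by the choice of members. Aebp1, a stromal matrix protein gene, fell as well, with 0.127 and 0.00483 in AA and 0.184 and 0.323 in vehicle (limma adjusted p = 0.0264), so that AA replicate 1 lay close to the lower vehicle library. Dync1i1, a dynein subunit, fell by 1.97, Ccbe1, a lymphatic growth factor, fell by 1.86, Snai2, a zinc finger repressor of epithelial genes, fell by 1.74 and Grk3, a receptor kinase, fell by 1.64. Nrn1, a neurite growth factor, fell by 1.63, and Cd83, an immunoglobulin family gene, and the orexin receptor Hcrtr2 each fell by 1.57. Of the 10, Snai2 and Cd83 also had a called domain.

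Ptger2, the prostaglandin E2 receptor EP2, was a bivalent end with 0.0813 and 0.0947 in AA and 0.23 and 0.323 in vehicle (-1.40 ± 0.42, limma adjusted p = 0.0391). Its domain of 12196 bp scored 0.258 and 0.263 in AA and 0.237 and 0.247 in vehicle and did not pass (0.09). Lef1, a partner of beta-catenin, had 0.339 and 0.3 in AA and 0.593 and 0.577 in vehicle (-0.83 ± 0.24, limma adjusted p = 0.0272). The call on Lef1 was lost when libraries were centred on their medians. At Lgr5, the R-spondin receptor and stem cell marker, H3K4me3 scored 0.921 and 0.759 in AA and 0.924 and 0.923 in vehicle and did not pass (-0.14, adjusted p = 0.678).

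The second comparison asked the same of H3K27me3 at the domains. H3K27me3 was higher in AA at 161 of the 2034 domains (7.92%) and lower at 6 (0.295%), against 0.498% and 0.0475% of all H3K27me3 peaks. Of the other peaks of 3000 bp or more, 1.28% were higher and 0.1% lower. The median change was 0.24 over the domains, 0.21 over the other long peaks and 0.12 over all peaks. Both AA libraries lay above both vehicle libraries at 1264 domains (62.1%), against 26.3% of all peaks and 48.4% of the other long peaks. Calls were most frequent at strong peaks. In the strongest of 10 bins of long peaks by mean score, 17.3% of 504 domains and 9% of 300 others were higher. The median change there was 0.20 in domains and 0.18 in the others, a distance of 0.02.

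The domain calls rested on the deposited scaling. When each library was centred on its median, 24 domains were called (21 higher, 3 lower) and their median change was 0.13; with the libraries centred on the strongest 25% of peaks it was 0.01, with 27 higher and 18 lower. Of 50 named genes called in H3K27me3, 15 were still called after centring on the medians, among them Coq8a, Slc27a2, Slc7a2, Cd83, Chrm3, Lgr5, Hes5 and Rbpms. Most calls were lost when any 1 library was left out, and no domain held in all 4 of those fits. limma without trend and robust estimation called 0. It had 90 of 2034 domains at an unadjusted p under 0.05, against 7226 of all 105301 H3K27me3 peaks, so the 90 were no excess.

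The largest rise was at Coq8a, an atypical kinase of coenzyme Q synthesis. Its domain of 4819 bp scored 0.327 and 0.35 in the AA libraries and 0.0477 and 0.059 in the vehicle libraries (2.11 ± 0.32, limma adjusted p = 2.18e-05). Slc27a2, a very long chain acyl-CoA synthetase, had 0.311 and 0.294 in AA and 0.0532 and 0.0662 in vehicle (1.86 ± 0.33, limma adjusted p = 0.000474). At both genes the vehicle scores were below the vehicle medians of all H3K27me3 peaks, 0.107 and 0.105, and the AA scores were above the domains' AA median. In all, 13 of the 161 higher domains had both vehicle scores below those medians. Which libraries entered the peak calling is not given in the sources used here. Such domains may have entered the set through the AA libraries alone, so the direction of their change may be fixed in part by the choice of members. Fam234b rose by 1.88, the arginine transporter Slc7a2 by 1.65, the nuclear receptor Nr5a2 by 1.62 and the peptidase neprilysin (Mme) by 1.61. The glutamate transporter Slc1a3 rose by 1.56, the homeobox gene Nkx1-2 by 1.52, Cd83 by 1.51 and the zinc finger factor Bcl11a by 1.50. Fam234b (0.0509 and 0.0445) and Bcl11a (0.0657 and 0.0651) were among the domains with both vehicle scores below those medians. The H3K27me3 calls at Fam234b, Nr5a2, Mme, Slc1a3 and Bcl11a were lost after centring on library medians.

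At genes of the epithelium itself, the Lgr5 domain of 4261 bp scored 0.349 and 0.284 in AA and 0.127 and 0.125 in vehicle, a rise of 1.13 ± 0.19 (limma adjusted p = 0.000168). This domain (chr10:115580682-115584942) covered only a part of its H3K4me3 peak (chr10:115580591-115588976), which also lay at an end of A930009A15Rik. Whether it reached the Lgr5 start was not examined. Atoh1, the factor that directs crypt cells to the secretory lineage, had 0.518 and 0.449 in AA and 0.363 and 0.349 in vehicle (0.41 ± 0.07, limma adjusted p = 0.00059). Pou2f3, the tuft cell factor, had 0.267 and 0.229 in AA and 0.0948 and 0.107 in vehicle (1.07 ± 0.28, limma adjusted p = 0.0447). The groups did not overlap at any of these 3 genes. The calls at Atoh1 and Pou2f3 were lost after centring. Ascl2, a stem cell factor, scored 0.0784 and 0.192 in AA and 0.113 in both vehicle libraries, so its groups overlapped.

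The 6 lower domains were at Rbpms, Sytl2, Mtcl1, Oxtr, Cxcl12 and Duxf3. Rbpms, an RNA-binding protein gene, scored 0.0738 and 0.109 in AA and 0.319 and 0.31 in vehicle (-1.50 ± 0.24, limma adjusted p = 7.96e-05). The oxytocin receptor Oxtr had 0.11 and 0.173 in AA and 0.267 and 0.269 in vehicle (-0.81). In both the AA libraries were the lower ones without overlap. Duxf3 is a copy of the multicopy Dux repeat, so its value (-0.34) is uncertain.

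The third comparison set both marks side by side. Taken alone, H3K4me3 was below 0 in change at 74.8% of bivalent ends, against 60.6% of all H3K4me3 peaks. The share was 27.5% at other gene ends and 69.3% at peaks away from gene ends. H3K27me3 was above 0 at 83.5% of the bivalent ends, against 59% of all H3K27me3 peaks. Among the other H3K27me3 peaks of 3000 bp or more the share was 77.8%, so most of it was shared with them. H3K4me3 was below 0 and H3K27me3 above 0 at 1337 bivalent ends (63.6%), a share to be read beside those of each mark alone. Both were above 0 at 418 (19.9%), both below at 235 (11.2%), and H3K4me3 was above and H3K27me3 below at 113 (5.37%). Over all 2103 bivalent ends the changes of the marks had a Pearson correlation of -0.04 and a Spearman correlation of 0.03; over the 1052 with the stronger H3K4me3, the Spearman correlation was -0.21. These are descriptions across peaks, which share the libraries of each mark and, in part, a domain. Among the called peaks, 65 of the 74 ends with lower H3K4me3 (87.8%) had a domain change above 0, a share near the 83.5% of all bivalent ends. Their median domain change was 0.33, against 0.23 over all bivalent ends. Of the 25 with higher H3K4me3, 17 (68%) had a domain change below 0 (median -0.35), against 16.5% of all bivalent ends.

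**Figure D3:**
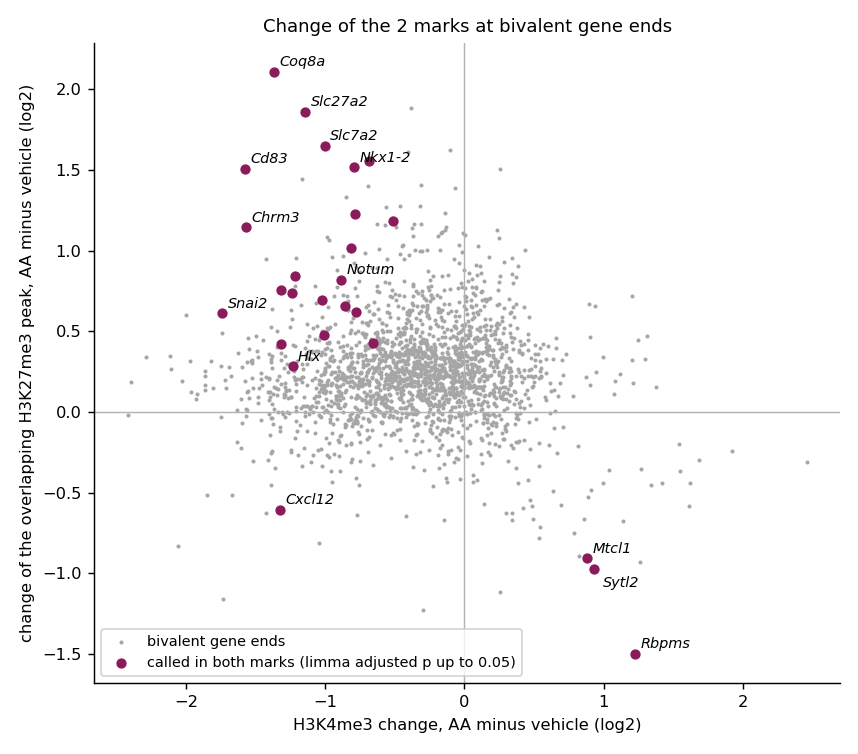
Change of H3K4me3 (x) and of the overlapping H3K27me3 domain (y), AA minus vehicle on the log2 scale, 1 point per bivalent gene end; the 26 called in both marks are large and some are named. Of these, 22 lie at upper left, 3 at lower right, 1 (Cxcl12) at lower left and 0 at upper right.

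Both marks were called at 26 bivalent ends. At 22 of them H3K4me3 was lower and H3K27me3 higher in AA, at 3 it was the reverse, at 1 both were lower and at 0 both were higher. Of all 2103 bivalent ends, 74 were lower and 25 higher in H3K4me3, while 179 lay on higher domains and 6 on lower ones. The joint counts lean the same way as these totals and were not tested against them. Under median centring 8 were called in opposite directions (3 with higher H3K4me3, 5 with lower), and under quantile normalization 16 (4 and 12). Leaving out 1 library of either mark gave 1 to 74 such ends; the highest number came without AA replicate 1 of H3K4me3 and the lowest without vehicle replicate 2 of H3K4me3.

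Of the 26 ends, Coq8a had the largest H3K27me3 change, described above. Its H3K4me3 peak (chr1:180190470-180196791) scored 0.55 and 0.438 in AA and 1.26 and 1.35 in vehicle (-1.36 ± 0.17, limma adjusted p = 7.5e-13), opposite to its domain. At Chrm3, the muscarinic acetylcholine receptor M3 (chr13:10357373-10361971), H3K4me3 scored 0.356 and 0.259 in AA and 0.971 and 0.93 in vehicle (-1.57 ± 0.21, limma adjusted p = 1.33e-10). The Chrm3 domain scored 0.316 and 0.326 in AA and 0.107 and 0.151 in vehicle (1.14 ± 0.19, limma adjusted p = 0.000114). In both genes the groups were apart in both marks, in opposite directions.

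Slc27a2 and Slc7a2 were among the 22. Slc27a2 had H3K4me3 scores of 0.532 and 0.417 in AA and 1.08 and 1.06 in vehicle (-1.14), and Slc7a2 of 0.304 and 0.22 in AA and 0.536 and 0.553 in vehicle. The monocarboxylate carrier Slc16a12 (-0.79 for H3K4me3, 1.23 for H3K27me3) and Slc1a3 (-0.68 and 1.56) had the same pair of directions. The glycosyltransferases A4galt (-1.24 and 0.74), St6gal1 (-1.32 and 0.42) and Extl1 (-0.81 and 1.01) did too. So did the kinases Itpkb, which phosphorylates inositol trisphosphate (-1.32 and 0.75), and Pfkfb3, which regulates glycolysis (-1.02 and 0.69). After centring on library medians, the H3K27me3 call was lost at Slc1a3, A4galt, St6gal1, Itpkb and Pfkfb3. The H3K4me3 call was lost at Slc16a12, Slc1a3 and Extl1.

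Notum, a secreted enzyme that inactivates Wnt ligands, had H3K4me3 scores of 0.278 and 0.216 in AA and 0.497 and 0.452 in vehicle (-0.88 ± 0.27, limma adjusted p = 0.0427). Its domain scored 0.321 and 0.314 in AA and 0.179 and 0.153 in vehicle (0.82 ± 0.16, limma adjusted p = 0.00146). The groups did not overlap in either mark at Notum, but both calls were lost after centring, as they were at Smo, Sox6, S1pr5 and Slc1a3. Centring also lost the H3K27me3 call at Sfrp5, Snai2, Hlx and Efhd1 and the H3K4me3 call at Fgf9 and Nkx1-2. Sfrp5, a secreted Wnt antagonist, changed by -1.22 and 0.84, the Hedgehog transducer Smo by -0.78 and 0.62 and the growth factor Fgf9 by -0.51 and 1.19. The remaining ends were at the transcription factors Snai2 (-1.74 and 0.61), Nkx1-2 (-0.79 and 1.52), Sox6 (-0.66 and 0.43) and Hlx, and at Cd83, Efhd1 and S1pr5. At Hlx it was the weaker of 2 bivalent peaks that was called (-1.23, adjusted p = 0.0395), while the stronger had -0.36 and did not pass.

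The reverse pattern was found at Rbpms, Sytl2 and Mtcl1. Rbpms H3K4me3 (chr8:33927454-33932416) scored 1.28 and 1.16 in AA and 0.501 and 0.508 in vehicle (1.23 ± 0.17, limma adjusted p = 6.26e-10), opposite to its domain. Sytl2, a vesicle docking gene, had 0.6 and 0.539 in AA and 0.285 and 0.289 in vehicle (0.93), with a domain change of -0.97. Mtcl1, a microtubule crosslinking factor, had 0.878 and 0.643 in AA and 0.406 and 0.389 in vehicle (0.88), with a domain change of -0.91. In each of the 3 the groups were apart in both marks. Cxcl12, a chemokine of stromal cells, was lower in both marks (-1.33 and -0.61), and its H3K27me3 call was lost after centring.

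**Figure D4:**
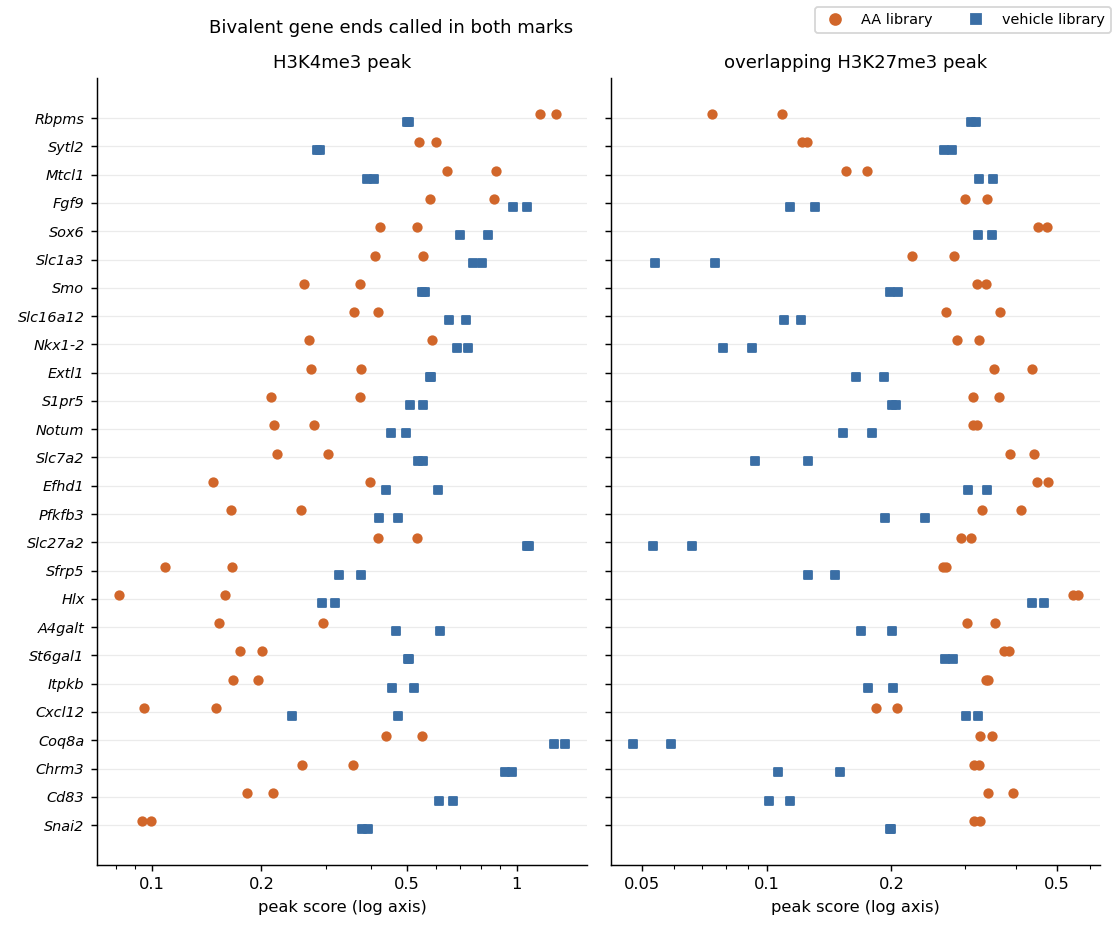
Scores (log axes) of the 26 bivalent gene ends called in both marks, H3K4me3 peak at left and overlapping H3K27me3 domain at right; circles are the 2 AA libraries and squares the 2 vehicle libraries. From Snai2 up to Fgf9 the AA circles lie left of the vehicle squares for H3K4me3 and, except at Cxcl12, right of them for H3K27me3, and at Mtcl1, Sytl2 and Rbpms the order is reversed in both panels.

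Gene groups were read by 1 peak per gene, the one with the most H3K4me3. Over all 2115 genes of the set, 27 were higher and 74 lower in H3K4me3, with a median change of -0.29, and 140 of 1857 domains were higher and 6 lower in H3K27me3, with a median of 0.24. H3K4me3 medians were below 0 in 18 of the 20 groups, and in 17 after centring on library medians, 18 after quantile normalization and 20 after centring on the strongest 25% of peaks. H3K27me3 medians were above 0 in 19 groups, and in 18 after centring on library medians, but in 11 after quantile normalization and 5 after centring on the strongest 25% of peaks. The genes named beside these counts for having passed the test were chosen after their values were seen. The groups were not matched by H3K4me3 level, and weak peaks of every kind had lower scores in AA.

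Among transcription factors, the Hox genes supplied 27 of 39. Of these 0 were called in H3K4me3 (median -0.25), while 2 of their 9 domains were higher in H3K27me3 and 0 lower (median 0.16). The HoxA domain scored 0.616 and 0.596 in AA and 0.545 and 0.483 in vehicle (0.23 ± 0.05, limma adjusted p = 0.0207), and the domain at Hoxd8 0.559 in both AA libraries and 0.499 and 0.432 in vehicle (0.25). Both domains had their AA libraries above, and both calls were lost after centring. Of 111 other homeobox factors 89 were in the set, with 0 higher and 2 lower in H3K4me3 (Nkx1-2 among them) and 9 domains higher. Barx2 had the strongest H3K4me3 among those 9, and its domain scored 0.35 and 0.406 in AA and 0.184 and 0.231 in vehicle (0.78).

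Of 35 zinc finger factors (Gata, Zic, Gli and others), 4 were lower in H3K4me3, namely Snai2, Zic1, Zic2 and Zic4, and 3 domains were higher, those of Bcl11a, Snai2 and Sp5. The median H3K4me3 change of that group was -0.52. The Fox factors had 17 genes with 0 called in H3K4me3 (median -0.53) and 1 domain higher, at Foxf2. The bHLH factors had 27 genes, 0 called in H3K4me3 (median -0.36) and 3 domains higher, at Atoh1, Hes5 and Sim1. Hes5, a Notch target, had H3K27me3 scores of 0.298 and 0.385 in AA and 0.145 and 0.153 in vehicle (1.03 ± 0.16, limma adjusted p = 4.21e-05). Its H3K4me3 scored 0.789 and 0.691 in AA and 0.696 and 0.83 in vehicle, so there the groups overlapped. Of 10 Sox factors 1 was higher in H3K4me3 (Sox21) and 1 lower (Sox6), with 1 domain higher (Sox6). Of 8 T-box factors 0 were called in H3K4me3 and 1 domain was higher (Tbr1). Of 12 nuclear receptors 2 were lower (Esrrg and Nr2f2) and 1 domain was higher (Nr5a2).

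Among signalling genes, 37 of 60 Wnt genes were in the set, 4 of them lower in H3K4me3 (Lef1, Notum, Ror1 and Sfrp5) and 0 higher, with a median of -0.39. Of their 35 domains 4 were higher, at Lgr5, Notum, Sfrp5 and Wnt16. The FGF, Hedgehog and Notch genes had 18 members, 2 lower in H3K4me3 (Fgf9 and Smo) and 3 domains higher (Fgf15, Fgf9 and Smo), with a median H3K27me3 change of 0.35. The BMP and TGF-beta genes had 24, 1 lower (Fstl1) and 2 domains higher (Acvrl1 and Smad6).

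Among surface genes, the 35 G protein-coupled receptor genes had a median H3K4me3 change of -0.56, with 33 below 0, 3 lower by the test (Ptger2, S1pr5 and Vipr2) and 0 higher. Their median H3K4me3 score was 0.207, and all bivalent ends scored from 0.188 to 0.256 had a median change of -0.43. Of their 35 domains 1 was higher and 1 lower. The 32 ion channel genes had 0 called in H3K4me3 and 3 domains higher. The 23 axon guidance and ephrin genes had 1 lower (Nrp1) and 1 domain higher (Ntn4), and the 11 cadherin and protocadherin genes had 0 called in either mark.

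The lineage and state groups were small. Of 11 secretory, tuft and enteroendocrine genes 0 were called in H3K4me3 (median -0.42) and 2 domains were higher (Atoh1 and Pou2f3). Of 4 fetal-like and regenerative genes 0 had a called domain. Of 18 mesenchymal and matrix genes 2 were higher (Col18a1 and Loxl3) and 1 lower (Col12a1) in H3K4me3, and 2 domains were higher (Col14a1 and Vim). The summed H3K4me3 score of the 2 fibroblast markers with a peak, Col1a1 and Pdgfra, was 0.877 and 0.647 in AA and 0.9 and 1.07 in vehicle. The other fibroblast markers of the list, Col1a2, Col3a1, Pdgfrb, Dcn, Lum and Thy1, had no gene-end peak. The part of fibroblasts in these values was not tested. Of 5 cell cycle inhibitors 0 were called in either mark. Cdkn2a, a senescence gene, had 0.547 and 0.559 in AA and 0.342 and 0.334 in vehicle without overlap, and did not pass (0.67, adjusted p = 0.0938). The 7 Polycomb and histone modifier genes had 0 called in H3K4me3 and 1 domain higher, at Cbx8, a subunit of Polycomb complex 1.

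**Figure D5:**
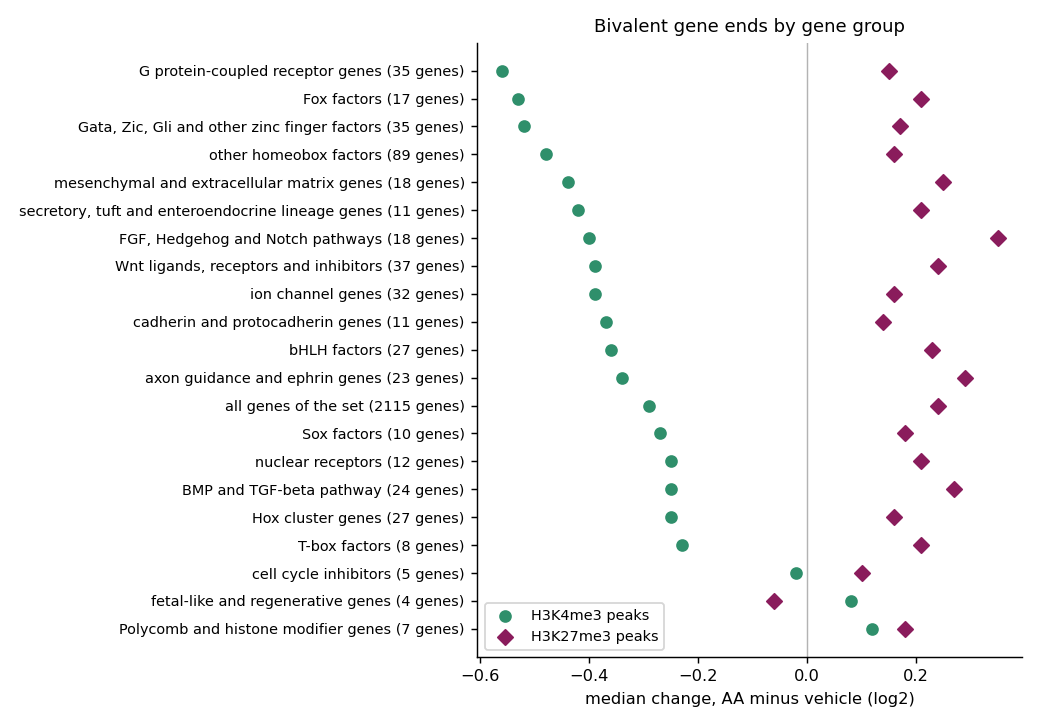
Median change, AA minus vehicle (log2), of H3K4me3 peaks (circles) and H3K27me3 domains (diamonds) at the bivalent gene ends of each gene group, with the number of genes in brackets. H3K4me3 medians lie below 0 in 18 of the 20 groups and H3K27me3 medians above 0 in 19 of 20 with the deposited scaling; after centring on the strongest 25% of peaks the counts are 20 and 5.

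H3K27ac was read at the 449 H3K27ac peaks over bivalent ends. Their median score was 0.206 in both AA libraries and 0.213 and 0.197 in vehicle, and their median change was 0.00, against 0.11 over all H3K27ac peaks. Of these peaks 1 was called, against 0.2% of all H3K27ac peaks. It lay at Arhgef17, a guanine nucleotide exchange factor, with 0.325 and 0.359 in AA and 0.123 and 0.184 in vehicle (0.90 ± 0.23, limma adjusted p = 0.0436). At Coq8a, where both other marks were called, H3K27ac scored 0.322 and 0.37 in AA and 0.354 and 0.363 in vehicle and did not pass (-0.05).

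The highest scores of the set were at Sfi1 (chr11:3121526-3148963). There H3K4me3 scored 2.66 and 2.39 in AA and 2.23 and 2.16 in vehicle, and H3K27me3 1.37 and 1.42 in AA and 1.45 and 1.51 in vehicle. H3K27ac was also high, at 2.05 and 2.11 in AA and 2.1 and 2 in vehicle, so that all 3 antibodies gave high scores at the same place. None of the 3 changes passed the test. Ugt1a1, the bilirubin glucuronosyltransferase, had 1.73 and 1.56 in AA and 2.57 and 2.37 in vehicle for H3K4me3 (-0.58 ± 0.10, limma adjusted p = 3.16e-06), while its domain of 59332 bp scored 0.249 and 0.265 in AA and 0.258 and 0.267 in vehicle (-0.03).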

How the data were processed

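H3K4me3, H3K27me3 and H3K27ac were measured by CUT&RUN in 2 AA and 2 vehicle libraries per mark. The authors deposited 1 table with a signal, the peak score, for each SEACR and MACS2 peak and library; SEACR, MACS2 and the mm10 build are named per the submitters' processing notes. The scaling, the aligner and all versions were not given in the sources used here. A test of the values found that score times length equalled whole numbers of a library-specific step in 100% of cases under 1000 steps (tolerance 0.1 step), and score over step was read as raw coverage. Libraries named control in the table were taken as vehicle.

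SEACR peaks were used. Gene ends came from a RefSeq table of GRCm38.p6 with 20665 protein-coding genes on chromosomes 1 to 19. A member with several domains was paired with the one it overlapped most. Coordinates count from 1. AA was compared with vehicle by limma 3.58.1 (R 4.3.3) with trend and robust estimation, fitted to log2 scores over all peaks of a mark with no filter on low values. The pseudocount added first was the 5th percentile of positive scores, 0.0253 for H3K4me3, 0.0329 for H3K27me3 and 0.0693 for H3K27ac. Changes are on that scale, which understates those of weak peaks. Of the bivalent ends 29 had an H3K4me3 score of 0 in some library. The fit was tested on simulated data.

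No label states whether a group's 2 libraries are separate cultures, so p-values reflect a spread that may be purely technical. Genes named are, per mark, the 10 largest rises and falls called without overlap between groups (predicted genes left out), the highest scores, up to 3 per gene list with the most H3K4me3, those called in both marks, and 36 chosen genes, of which 24 were in the set; the text gives a part of them, and a few are not reported here. The members, lists and choices were made with earlier results of these data known. Alternatives were other scalings, pseudocounts, a filter, a replicate block, another threshold, other forms of the rule and the omission of each library.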

Additional observations from a re-analysis of the deposited data

How the results depend on the processing

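The numbers of calls depended on the scaling, while the median changes of ends and domains kept their sign under every alternative run. With each library centred on its median, 157 H3K4me3 ends (median -0.11), 24 domains (0.13) and 0 acetylation peaks (-0.07) were called, 8 ends in opposite directions. Quantile normalization gave 157 ends, 29 domains (0.04), 0 acetylation peaks (-0.10) and 16 opposite ends. Centring on the strongest 25% of peaks gave 373 ends, 45 domains (0.01) and 0 acetylation peaks (-0.14). A pseudocount 4 times larger gave 83 domains (0.17), and one 4 times smaller a domain median of 0.26. limma without trend and robust estimation called 0 ends, 0 domains, 0 acetylation peaks and 0 opposite ends. An adjusted p of 0.01 left 43 ends, 92 domains, 0 acetylation peaks and 9 opposite ends. Among the upper 50% of peaks by score, 0 acetylation peaks were called. Leaving out 1 library gave 3 to 532 ends (median -0.49 to -0.13), 7 to 14 domains (0.22 to 0.25), 0 to 1 acetylation peaks and 1 to 74 opposite ends. The MACS2 peaks alone gave 0 members. The 484 members with MACS2 peaks of both marks inside, an alternative chosen after seeing the data like the counts of opposite ends, had 39 ends and 69 domains called. Domains of 2000 bp or more gave 2 acetylation peaks. The causes were not tested.

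Same-numbered libraries did not deviate together over peaks (correlations of -0.00, 0.00 and 0.01). Such correlations cover many weak peaks, so they cannot tell whether the numbers pair the samples, and no label states it. With the replicate block, 119 ends, 190 domains and 2 acetylation peaks were called. Of the named genes called, 37 of 48 in H3K4me3 and 15 of 50 in H3K27me3 were still called after centring. Weak peaks rest on few fragments per base, with 5% of bivalent H3K4me3 peaks under 0.34 and 0.33 in AA and under 1.88 and 0.96 in vehicle.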
